A study of Mus musculus with 35 samples.

Results

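Serotonin receptor genes were described across genotype and treatment in punches of mouse medial prefrontal cortex, a region at the front of the neocortex. The members were the 9 listed receptor genes with a row in the deposited matrix, Htr1a, Htr1b, Htr1f, Htr2a, Htr2c, Htr3a, Htr4, Htr5a and Htr7, out of 14870 genes; all 9 were found. They were listed with earlier results of these data known, and no measured value entered the rule. Serotonin reaches the cortex along axons of the raphe nuclei, whose cell bodies lie in the brainstem, so the cortex holds the receptors while most genes of serotonin synthesis are transcribed elsewhere. The products of Htr1a, Htr1b, Htr1f and Htr5a couple to Gi/o proteins, which lower cyclic AMP and open inwardly rectifying potassium channels. Those of Htr2a and Htr2c couple to Gq/11 and phospholipase C, those of Htr4 and Htr7 to Gs and adenylyl cyclase, and Htr3a encodes a subunit of a ligand-gated cation channel.

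Total RNA of the bulk punches was sequenced from Shank3-deficient mice (KO) and wild-type mice (WT). Each genotype received antibiotics with acetate (abx_and_acetate), acetate alone, antibiotics alone (abx), or water (control). The groups were KO_abx_and_acetate (n = 4), KO_acetate (n = 5), KO_abx (n = 3), KO_control (n = 4), WT_abx_and_acetate (n = 4), WT_acetate (n = 5), WT_abx (n = 4) and WT_control (n = 6). The sources used here give no strain, age, antibiotic, dose or list of the Shank3 exons removed, and name no driver line. Nothing in the labels ties each library to an animal of its own, so the p-values cover only the spread among libraries, which may be technical. Libraries carry their group name and a number in record order that pairs nothing.

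The values are log2 CPM, where CPM is a read count scaled to library depth, over 12.8 to 28.0 M recovered reads a library (median 21.8 M); 15 libraries were labelled female and 20 male. The cortical excitatory markers Slc17a7 and Tbr1 averaged 10.8 and 7.22 log2 CPM over the 35 libraries. As a check of the labels, Shank3 spanned 4.07 to 5.11 log2 CPM over 16 KO libraries and 7.48 to 8.85 over 19 labelled WT, with a log2 fold of -3.92 ± 0.17 (SE) for KO against WT in control. Acr, its downstream neighbour, had a log2 fold of 5.45 ± 0.65 (SE) there. The libraries labelled WT_abx 4, WT_acetate 2 and WT_acetate 5 were intermediate for both genes. In 4 libraries, those labelled WT_abx 3, WT_acetate 2, WT_acetate 4 and WT_acetate 5, Y-linked genes went against the sex label. KO_acetate 1 stood apart in markers of striatal medium spiny neurons, with a score of 2.74 against at most 0.27 in the other 34 libraries. Such a score averages, over the markers of a list, how far a library lies from each marker's mean on the log2 scale. The library labelled WT_abx 4 stood apart in choroid plexus markers (2.77) and meningeal markers (2.37). The labelled groups are used throughout.

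Sequences of 4 promoters are shown. Htr1a was chosen because it carried the treatment difference that passed the test. Htr1b, Htr2a and Htr7 were chosen because their levels were correlated over the 35 libraries. Htr7 went the opposite way, with r = -0.60 against Htr2a and -0.62 against Htr1b. Within 32 libraries, without those lowest in Htr2a, no pair among these genes passed a permutation test after adjustment. Htr1f, whose pair with Htr7 did pass there, is not printed. The windows are the 250 bases before each RefSeq gene start in GRCm38.p6, and 7 of the 9 members have an entry in that table. They lie at chr13:105443443-105443692, plus strand, chr9:81633833-81634082, minus strand, chr14:74640624-74640873, plus strand and chr19:36057361-36057610, minus strand. The RefSeq starts of Htr1a, Htr2a and Htr7 lie inside the gene spans of the annotation used below. Each window runs 5′ to 3′ on the gene's strand, with motif matches in capitals.
Htr1a: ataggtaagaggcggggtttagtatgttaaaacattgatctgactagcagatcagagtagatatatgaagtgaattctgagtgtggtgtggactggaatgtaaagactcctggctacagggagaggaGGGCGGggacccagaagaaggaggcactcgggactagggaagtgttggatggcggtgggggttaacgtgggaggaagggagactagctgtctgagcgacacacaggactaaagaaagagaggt
Htr1b: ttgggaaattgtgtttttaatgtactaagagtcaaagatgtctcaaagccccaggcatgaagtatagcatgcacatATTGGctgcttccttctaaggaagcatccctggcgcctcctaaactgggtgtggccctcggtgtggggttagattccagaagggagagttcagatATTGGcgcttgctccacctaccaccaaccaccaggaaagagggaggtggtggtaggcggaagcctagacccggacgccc
Htr2a: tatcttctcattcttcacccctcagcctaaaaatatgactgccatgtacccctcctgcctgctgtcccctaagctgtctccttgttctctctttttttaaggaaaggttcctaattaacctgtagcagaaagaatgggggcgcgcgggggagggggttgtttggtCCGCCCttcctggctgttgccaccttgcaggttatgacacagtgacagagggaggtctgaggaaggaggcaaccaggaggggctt
Htr7: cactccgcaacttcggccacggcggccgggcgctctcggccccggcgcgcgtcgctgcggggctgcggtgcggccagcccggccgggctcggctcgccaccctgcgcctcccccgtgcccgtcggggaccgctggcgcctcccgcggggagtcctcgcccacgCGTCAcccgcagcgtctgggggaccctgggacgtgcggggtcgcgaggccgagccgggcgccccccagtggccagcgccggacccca
The search covered both strands for the GC box GGGCGG, the CCAAT box, the core of the cAMP response element TGACG, the TATA box TATAAA and the E box CACGTG. A GC box began 123 bases before the Htr1a start on the gene's strand and, on the opposite strand, 85 bases before the Htr2a start; 33.0% of 32536 promoters held that motif. Htr1b held CCAAT on the opposite strand at 174 and 79 bases, a motif in 33.8% of promoters. Htr7 held TGACG on the opposite strand at 87 bases, a motif in 17.9% of promoters. TATAAA (12.3% of promoters) and CACGTG (6.04%) were in none of the 7 windows, and outside the 4 printed the only match was CCAAT in Htr2c at 80 bases. The GC content of the windows was 50.4% for Htr1a, 52.4% for Htr1b, 52.8% for Htr2a and 82% for Htr7. A match is only a stretch of letters; no binding was measured here.

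The members lie on 8 chromosomes in GRCm38. Htr1a is a single-exon gene on chromosome 13 (105443639 to 105448122, plus strand). Htr1b (81628291 to 81633828, minus) and Htr3a (48899213 to 48911099, minus) are on chromosome 9, Htr1f on chromosome 16 (64924729 to 65105854, minus) and Htr2a on chromosome 14 (74640840 to 74709494, plus). Htr2c is on the X chromosome (146962513 to 147197277, plus), Htr4 on chromosome 18 (62324204 to 62496577, plus), Htr5a on chromosome 5 (27842149 to 27855088, plus) and Htr7 on chromosome 19 (35958734 to 36057507, minus). The antisense gene D430036J16Rik shares 852 exon bases with Htr1b. The libraries mark strand, per the labels' protocols, but the sources used here do not say whether counting used it, so Htr1b reads may include antisense ones. The other 8 members share no exon base with another gene in the annotation.

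Per kilobase of exon, Htr5a, Htr1a, Htr2a, Htr7 and Htr3a had the highest levels and Htr4 the lowest. Mean length-corrected levels over the 35 libraries were 4.13 CPM per kb for Htr5a, 4.10 for Htr1a, 3.99 for Htr2a, 3.69 for Htr7 and 3.54 for Htr3a. Htr1b followed at 2.59, Htr2c at 2.40, Htr1f at 1.05 and Htr4 at 0.240 CPM per kb. The order among the leading 5 was not stable between libraries. Htr5a exceeded Htr1a in 19 of 35 libraries, Htr1a exceeded Htr2a in 17, Htr2a exceeded Htr7 in 21 and Htr7 exceeded Htr3a in 16. Below them the steps were clearer, with Htr3a above Htr1b in 31 libraries, Htr1b above Htr2c in 28, Htr2c above Htr1f in 32 and Htr1f above Htr4 in 34. Htr4 rested on 11 to 51 reads a library and Htr1f on 12 to 102, so their values carry more counting error than those of Htr5a, with 314 to 666 reads. Fewer cells of a type and less RNA per cell cannot be told apart in such bulk levels.

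**Figure D1:**
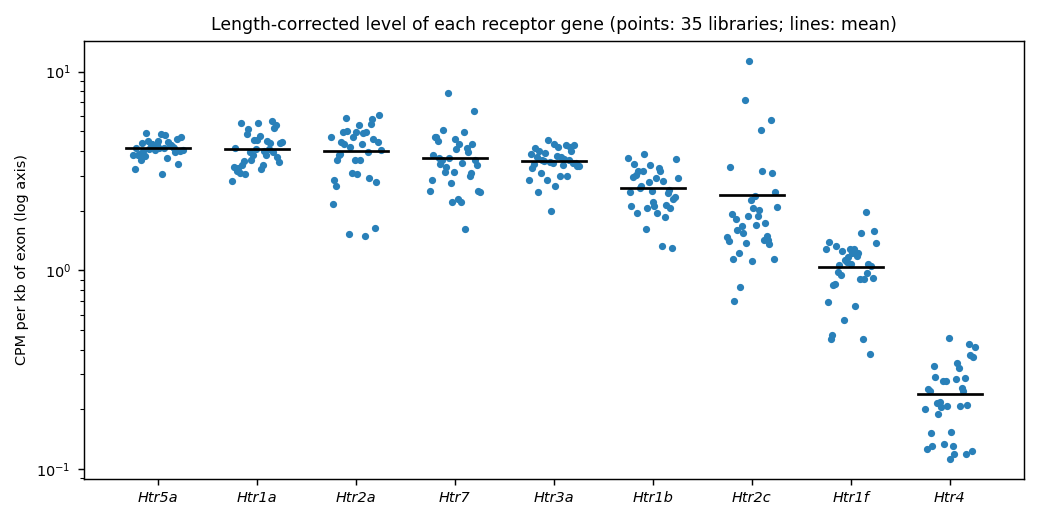
Length-corrected level (CPM per kb of exon, log axis) of the 9 serotonin receptor genes, with a point for each of 35 libraries and a line at the mean. Htr5a, Htr1a, Htr2a, Htr7 and Htr3a overlap at means of 3.54 to 4.13 CPM per kb, Htr4 lies lowest at 0.240, and Htr2c spreads widest.

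Htr1a, the inhibitory receptor found on cortical pyramidal cells and, as an autoreceptor, on raphe neurons, was higher in WT mice given antibiotics with acetate than in WT mice given water. The WT_abx_and_acetate libraries held 4.66, 4.15, 4.54 and 4.59 log2 CPM, and the WT_control libraries ran from 3.66 through a median of 3.85 to 4.20. Of the 4 treated libraries 3 lay above every control, while WT_abx_and_acetate 2 (4.15) fell just below WT_control 3 (4.20), so the groups overlapped. The log2 fold was 0.61 ± 0.14 (SE, 95% interval 0.34 to 0.89; adjusted p = 0.0289 by limma), and Htr1a was the 1 of 9 members called, against 0.726% of all genes (108 of 14870). At an unadjusted p under 0.05 the count was 3 of 9 members, with 14.4% of all genes. The mean was 4.49 ± 0.23 in WT_abx_and_acetate (SD, n = 4) and 3.87 ± 0.18 in WT_control (SD, n = 6).

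The direction held within each labelled sex. In females the 1 treated WT library, WT_abx_and_acetate 4, was at 4.59 and the 3 controls at 3.79 to 3.87. That library was the shallowest of the 35, at 12.8 M reads, and had a choroid plexus score of 1.69. In males the 3 treated libraries were at 4.15 to 4.66 and the 3 controls at 3.66 to 4.20, so the males overlapped. The call rested on most of the libraries compared. The fold stayed between 0.55 and 0.72 with each library left out, but the adjusted p was above 0.05 in 7 of 10 cases: without WT_abx_and_acetate 1 (0.117), 3 (0.102) or 4 (0.0593), or without WT_control 1 (0.0625), 4 (0.071), 5 (0.0543) or 6 (0.0513). Fitted on these 2 groups alone it gave an adjusted p = 0.0645, and without WT_abx_and_acetate 4, WT_acetate 3 and the library labelled WT_abx 4 a log2 fold of 0.57 and an adjusted p = 0.0651.

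Scores of several marker lists leaned apart between the same libraries, in ranges that mostly overlapped, and no test was run on them. Another list, of interneurons from the caudal ganglionic eminence, covered nearly the same range (-0.10 to 0.08 in WT_abx_and_acetate, -0.08 to 0.09 in WT_control). Immediate early genes, which neurons transcribe upon activity, scored -0.58 to 0.56 in WT_abx_and_acetate against 0.33 to 1.17 in WT_control (10 of 10 markers measured). Scores of excitatory neurons ran from 0.03 to 0.25 in the treated and -0.16 to 0.01 in the control libraries (6 of 6 measured), with no overlap. Astrocyte scores ran from -0.28 to -0.04 against -0.06 to 0.28 (5 of 5), microglia scores from -0.40 to 0.06 against -0.04 to 0.17 (6 of 6) and endothelial scores from -0.20 to -0.02 against -0.02 to 0.19 (4 of 4). In summed level, the excitatory list held 1900 to 2548 CPM against 1948 to 2369 CPM, and the immediate early list 650 to 1257 CPM against 1226 to 2310 CPM. Across all 35 libraries Htr1a and the immediate early score had r = -0.44 (permutation adjusted p = 0.0431; rho = -0.47), r = -0.48 without the 2 libraries of most extreme score and r = -0.38 within groups and sexes (adjusted p = 0.085). Htr5a had a like relation to the immediate early score, at r = -0.44 (permutation adjusted p = 0.0431) and r = -0.26 within groups and sexes (adjusted p = 0.286). The part of these marker differences in the Htr1a result was not tested. Of 6 markers of raphe serotonin neurons, Tph2 averaged -0.44 and Slc18a2 1.61 log2 CPM, and the other 4 had no row in the matrix.

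The other treatments gave Htr1a folds in the same direction that did not pass. Means in KO were 4.16 ± 0.17 under abx_and_acetate, 4.38 ± 0.16 under acetate, 4.27 ± 0.07 under abx, and 4.08 ± 0.37 in control. Means in WT were 4.49 ± 0.23 under abx_and_acetate, 4.24 ± 0.23 under acetate, 4.01 ± 0.14 under abx, and 3.87 ± 0.18 in control (SD). No neighbouring pair in the order of the 8 group means differed by more than the SD of both groups. For acetate against control in WT the log2 fold was 0.37 ± 0.13 (interval 0.11 to 0.63; adjusted p = 0.320 by limma), with WT_acetate at 4.44, 4.53, 4.14, 4.01 and 4.09. Y-linked genes went against the sex label in the libraries at 4.53, 4.01 and 4.09, and those at 4.53 and 4.09 were intermediate for Shank3. For acetate against control in KO the log2 fold was 0.31 ± 0.14 (0.02 to 0.59; adjusted p = 0.349 by limma). KO_acetate was at 4.34, 4.20, 4.35, 4.63 and 4.41 and KO_control at 4.62, 3.93, 3.99 and 3.77. KO_control 1 lay above all but 1 KO_acetate library, and without it the acetate fold in KO was 0.50. With each library left out in turn that fold ran from 0.20 to 0.50 and was never called. For antibiotics with acetate against antibiotics in WT the log2 fold was 0.48 ± 0.15 (0.17 to 0.78; adjusted p = 0.720), where WT_abx held 3.86, 3.93, 4.17 and 4.09.

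In KO mice Htr1a under the combined treatment overlapped control. The KO_abx_and_acetate libraries held 4.06, 3.97, 4.29 and 4.31 log2 CPM, between the lowest and highest KO_control libraries (3.77 and 4.62). The upper end is KO_control 1 alone; the other KO_control libraries were at 3.93, 3.99 and 3.77, below 3 of the 4 treated ones. The genotype by abx_and_acetate interaction, which tests the difference between genotypes directly, was -0.53 ± 0.20 (-0.95 to -0.12) with an unadjusted p = 0.0133 by limma. It did not pass over all genes (adjusted p = 0.999). With each library left out in turn the interaction ran from -0.65 to -0.37 and was never called. Under abx_and_acetate, Htr1a in KO was at -0.33 ± 0.15 (-0.64 to -0.02) relative to WT on the log2 scale (adjusted p = 0.999). Over all 8 groups the F test gave F = 4.34 for Htr1a with an adjusted p = 0.263, the smallest among the members. A library-weighted fit called 1 member in that test, and the unweighted fit called 0 (unadjusted count 1 of 9).

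**Figure D2:**
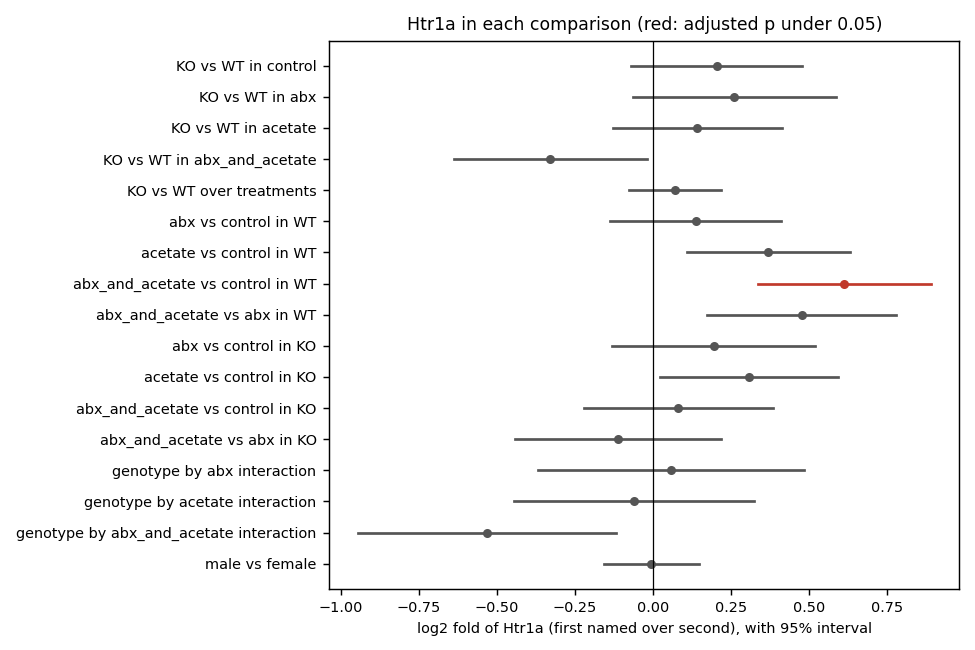
Log2 fold of Htr1a in 17 comparisons (points, first-named group over second) with 95% intervals from limma; red marks an adjusted p under 0.05. The 1 red point, antibiotics with acetate against control in WT, stands at 0.61, and the interaction of that treatment with genotype at -0.53.

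Htr1b, Htr1f and Htr5a are the other Gi/o-coupled members. Htr1b, a receptor of axon terminals, held 3.54, 3.58, 3.28 and 2.61 log2 CPM in WT_abx_and_acetate, and 3.32 to 4.11 with a median of 3.82 in WT_control. The log2 fold was -0.53 ± 0.25 (-1.04 to -0.03; adjusted p = 0.323 by limma), and it was -0.28 without WT_abx_and_acetate 4, the lowest library for Htr1b of all 35. Under antibiotics alone in WT its log2 fold was -0.35 ± 0.25 (-0.85 to 0.15; adjusted p = 0.729), and -0.08 without the library labelled WT_abx 4 (2.65). Means in KO were 3.70 ± 0.31 under abx_and_acetate, 3.61 ± 0.29 under acetate, 3.40 ± 0.30 under abx, and 3.60 ± 0.29 in control. The WT means were 3.25 ± 0.45 under abx_and_acetate, 3.60 ± 0.50 under acetate, 3.43 ± 0.62 under abx, and 3.77 ± 0.30 in control. The highest mean of Htr1b was in WT_control and the lowest in WT_abx_and_acetate.

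Htr5a varied least among the members. It ran from 4.05 to 4.72 log2 CPM, a 1.59-fold range over 35 libraries, and its residual SD of 0.138 was below the 0.144 expected at its level. KO means were 4.43 ± 0.19 under abx_and_acetate, 4.55 ± 0.11 under acetate, 4.54 ± 0.03 under abx, and 4.51 ± 0.17 in control. WT means were 4.50 ± 0.09 under abx_and_acetate, 4.53 ± 0.05 under acetate, 4.38 ± 0.27 under abx, and 4.32 ± 0.11 in control. WT_control was the lowest group mean, and the folds against it were small. In WT they were 0.23 ± 0.09 (0.05 to 0.40; adjusted p = 0.376) for acetate and 0.20 ± 0.09 (0.01 to 0.38; adjusted p = 0.306) for antibiotics with acetate. For KO against WT in control Htr5a was at 0.19 ± 0.09 (0.00 to 0.37; adjusted p = 0.9995), and its interaction with abx_and_acetate at -0.30 ± 0.14 (-0.58 to -0.03; adjusted p = 0.999 by limma).

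Htr1f, the least abundant of the Gi/o-coupled members, ran from -0.02 to 2.35 log2 CPM on 12 to 102 reads. KO means were 1.63 ± 0.36 under abx_and_acetate, 1.63 ± 0.11 under acetate, 1.15 ± 0.89 under abx, and 1.43 ± 0.26 in control. Its WT means were 1.28 ± 0.98 under abx_and_acetate, 1.32 ± 0.46 under acetate, 1.32 ± 0.41 under abx, and 1.0 ± 0.70 in control. The group means spanned 1.0 to 1.63 log2 CPM, with SDs of 0.11 to 0.98. Its log2 fold of 0.59 ± 0.42 (-0.27 to 1.45) for antibiotics with acetate against antibiotics in KO was 0.10 without KO_abx 2 (0.22 log2 CPM) and 0.96 without KO_abx 1 (1.99), so it depended on which of 3 libraries entered. The interaction with antibiotics was -0.63 ± 0.54 (-1.74 to 0.47) for the same gene, -1.01 without KO_abx 1 and -0.13 without KO_abx 2.

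Htr2a, the cortical Gq-coupled receptor on pyramidal dendrites, varied more between libraries than between groups. KO means were 4.54 ± 0.46 under abx_and_acetate, 4.57 ± 0.35 under acetate, 4.44 ± 0.39 under abx, and 4.61 ± 0.15 in control. The WT means were 4.46 ± 0.85 under abx_and_acetate, 4.32 ± 0.77 under acetate, 4.19 ± 0.77 under abx, and 4.16 ± 0.40 in control. WT_abx_and_acetate held 4.94, 5.02, 4.68 and 3.20 log2 CPM, WT_acetate 5.04, 4.81, 3.10, 4.54 and 4.12, and WT_abx 4.33, 4.59, 4.79 and 3.07. In each treated WT group a single library lay at 3.07 to 3.20, well below the rest of its group, while the other 32 libraries ran from 3.60 to 5.08. No such library was in KO, where Htr2a ran from 3.96 to 5.08. Without WT_abx_and_acetate 4, WT_acetate 3 and WT_abx 4, an exclusion made after their values were seen, the log2 fold of Htr2a for abx_and_acetate against control in WT was 0.72 ± 0.24 (adjusted p = 0.128 by limma). With all libraries it was 0.24. The libraries left out are the lowest for Htr2a and all from treated groups, so the fold had to rise without them. Its p-value there is no test of the treatment.

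Htr2c, the receptor abundant in choroid plexus and subject to RNA editing, had the widest range of the 9. It ran from 2.71 in WT_control 6 to 6.73 log2 CPM in KO_acetate 1, a 16.2-fold range, with a median of 4.02. KO means were 4.27 ± 0.62 under abx_and_acetate, 4.65 ± 1.24 under acetate, 4.22 ± 0.60 under abx, and 3.61 ± 0.50 in control. The WT means were 4.23 ± 1.0 under abx_and_acetate, 4.34 ± 0.98 under acetate, 4.48 ± 0.74 under abx, and 3.78 ± 0.75 in control. The 4 highest libraries were KO_acetate 1 (6.73), WT_acetate 3 (6.07), WT_abx_and_acetate 4 (5.74) and the library labelled WT_abx 4 (5.57), and the highest of the other 31 was WT_control 3 (4.94). Thus the treated means exceeded those of control in both genotypes, but each treated WT mean held 1 such library.

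For acetate against control in KO, Htr2c had the largest log2 fold of any member in any of the 17 signed comparisons, 1.02 ± 0.55 (SE, -0.09 to 2.14; adjusted p = 0.417 by limma). KO_acetate held 6.73, 4.40, 3.38, 4.26 and 4.47 and KO_control 4.09, 3.89, 3.52 and 2.94. Without KO_acetate 1, the highest of its group, and WT_abx 4 the log2 fold was 0.52 ± 0.48. KO_acetate 1 held 918 CPM summed over the 11 of 12 striatal markers measured, against at most 298 CPM in any other library, with Drd1 at 5.62, Drd2 at 4.93 and Adora2a at 5.76 log2 CPM. Its oligodendrocyte score was 1.86 and its upper layer score -0.94, the highest and the lowest of the 35, and the part of these in its Htr2c value was not tested. Without the 3 WT libraries low in Htr2a, the Htr2c fold for acetate against control in WT was 0.02, against 0.52 with them. For abx_and_acetate against control in WT it was -0.27 without them and 0.41 with them. Each of the 3 was also the highest of its group for Htr2c, so these folds had to fall without them.

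The residual SD of Htr2c within groups and sexes was 0.876, 5.75 times that expected at its level and above that of 99.8% of genes. The ratio was 3.87 for Htr2a (above 99.0% of genes), 2.70 for Htr7 (96.4%) and 2.30 for Htr1b (94.3%). It was 1.73 for Htr1f (86.6%), 1.41 for Htr1a (76.6%), 1.28 for Htr4 (70.1%), 1.27 for Htr3a (69.5%) and 0.961 for Htr5a (41.9%). The members thus differed in their spread within a group, and the 95% intervals of Htr2c folds were wide, as for antibiotics with acetate against control in WT (-0.67 to 1.49).

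**Figure D3:**
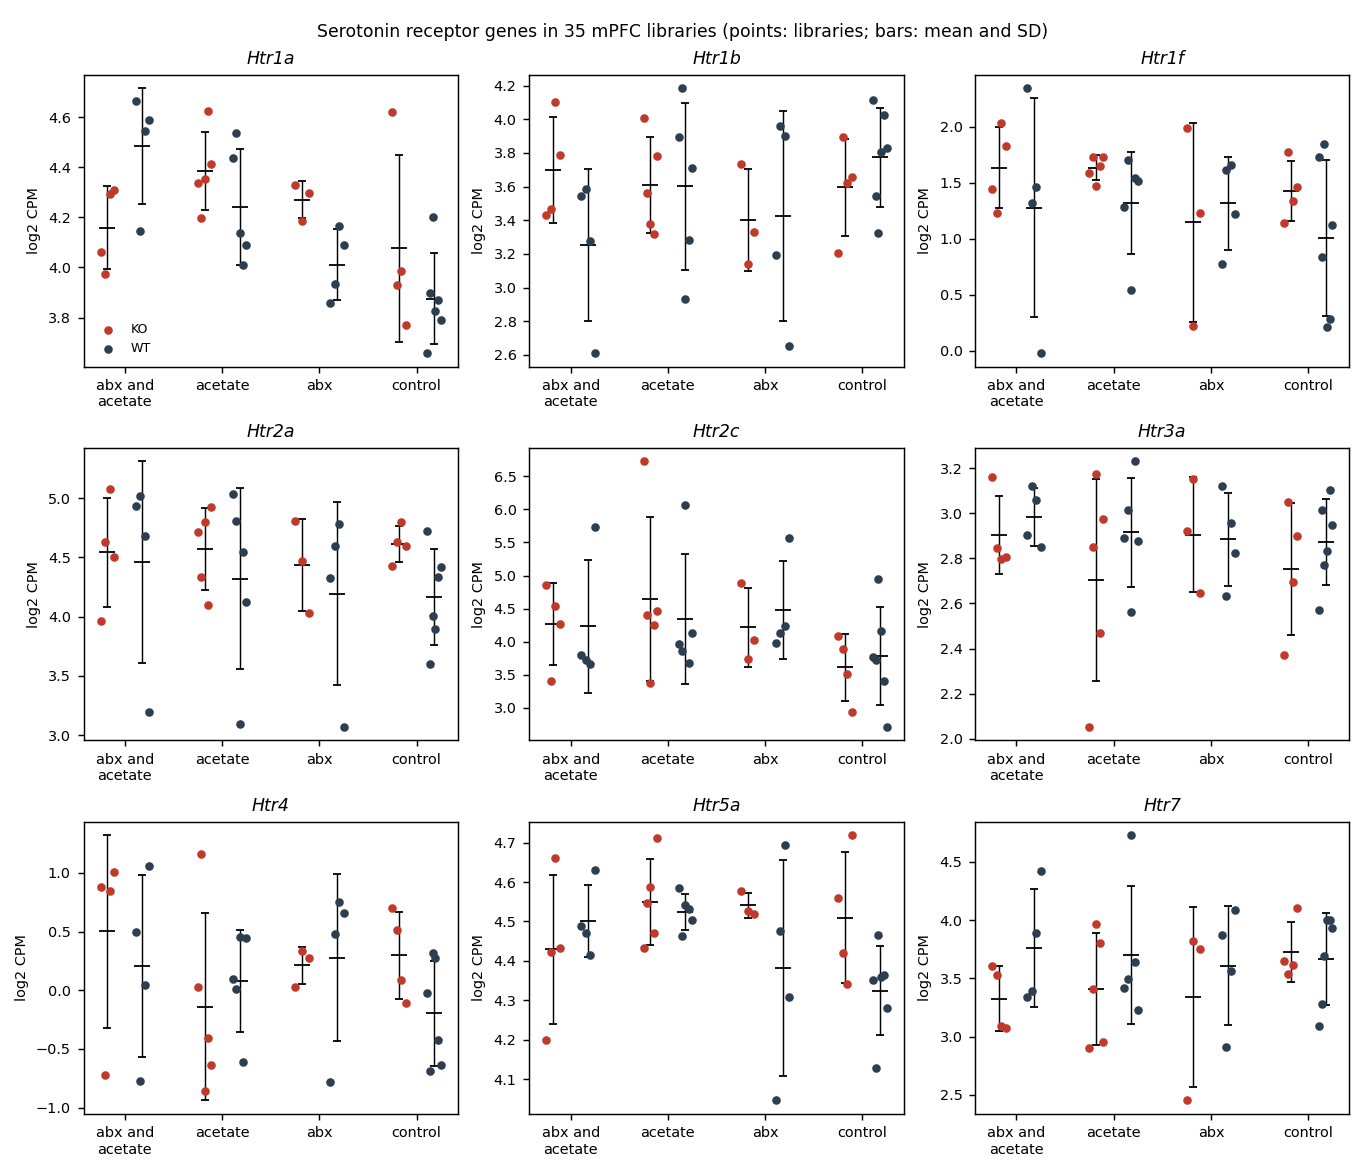
Log2 CPM of each receptor gene in 35 libraries, by treatment, with KO in red left of WT in dark blue; points are libraries and bars the mean and SD. Htr1a in WT given antibiotics with acetate lies above control except for 1 library, Htr2a has a single low library in each treated WT group, and Htr2c has 4 libraries above 5.5.

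Htr7, a Gs-coupled receptor, was high in the libraries lowest in Htr2a, at 4.42 in WT_abx_and_acetate 4, 4.73 in WT_acetate 3 and 4.08 in WT_abx 4. Over the other 32 libraries the relation was weaker (r = -0.33, permutation adjusted p = 0.172), and WT_control 2 was low in both (Htr2a 3.60, Htr7 3.28). Htr7 ran from 2.45 in KO_abx 1 to 4.73 log2 CPM in WT_acetate 3. KO means were 3.33 ± 0.28 under abx_and_acetate, 3.41 ± 0.48 under acetate, 3.34 ± 0.77 under abx, and 3.73 ± 0.26 in control. The WT means were 3.76 ± 0.50 under abx_and_acetate, 3.70 ± 0.59 under acetate, 3.61 ± 0.51 under abx, and 3.67 ± 0.39 in control. In KO given antibiotics with acetate Htr7 was at 3.61, 3.53, 3.09 and 3.08, against 3.65, 3.54, 3.61 and 4.11 in KO_control, so the groups overlapped. The log2 fold was -0.46 ± 0.32 (-1.11 to 0.18; adjusted p = 0.722 by limma). Over treatments KO was at -0.27 ± 0.15 relative to WT (-0.58 to 0.05; adjusted p = 0.957), the smallest p of the members in that comparison, and -0.16 without KO_abx 1.

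Htr4, the other Gs-coupled member, was near the lower end of the matrix, with a mean log2 CPM above that of 6.54% of genes. KO means were 0.50 ± 0.82 under abx_and_acetate, -0.14 ± 0.80 under acetate, 0.21 ± 0.16 under abx, and 0.30 ± 0.37 in control. The WT means were 0.21 ± 0.78 under abx_and_acetate, 0.08 ± 0.43 under acetate, 0.28 ± 0.71 under abx, and -0.20 ± 0.45 in control. Libraries within a group differed by up to 2.01 on the log2 scale (KO_acetate 3 at -0.85 and KO_acetate 2 at 1.16, on 11 and 51 reads), more than any difference between group means (at most 0.70).

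Htr3a, which marks a class of cortical interneurons, ran from 2.05 in KO_acetate 1 to 3.23 log2 CPM in WT_acetate 4. KO means were 2.90 ± 0.17 under abx_and_acetate, 2.70 ± 0.45 under acetate, 2.91 ± 0.25 under abx, and 2.75 ± 0.29 in control. The WT means were 2.98 ± 0.13 under abx_and_acetate, 2.92 ± 0.24 under acetate, 2.89 ± 0.21 under abx, and 2.87 ± 0.19 in control. For KO against WT in acetate it was at -0.20 ± 0.17 (-0.54 to 0.13; adjusted p = 0.934 by limma), and at -0.02 without KO_acetate 1. KO_acetate 1 therefore supplied both the highest Htr2c and the lowest Htr3a value.

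Genotype gave no member a call in any treatment. In control 0 of 9 members passed the adjusted threshold of 0.05 in limma (0.0202% of all genes) and 1 had an unadjusted p under 0.05 (4% of all genes). Under antibiotics the counts were 0 (0.0134%) and 0 (3.78%), with Htr5a at 0.17 ± 0.11 (-0.04 to 0.39; adjusted p = 0.995), a fold that was 0.07 without WT_abx 1 and 0.26 without WT_abx 3. Under acetate they were 0 (0.00672%) and 0 (5.97%), and under antibiotics with acetate 0 (0.0134%) and 1 (3.7%). Over treatments they were 0 (0.0202%) and 0 (5.25%). The median log2 fold of the 9 members was 0.19 in control, -0.03 under abx, 0.02 under acetate and 0.10 under abx_and_acetate, while the median over all genes was near 0 in each. Single members spanned -0.56 to 0.49 in these 4 comparisons.

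Treatment in WT called Htr1a alone. Antibiotics gave 0 members by the adjusted rule (0% of all genes) and 0 by the unadjusted (9.05%). Acetate gave 0 (0.00672%) and 2 (9.41%), and antibiotics with acetate against antibiotics 0 (0%) and 1 (6.12%). The members' median log2 fold was 0.21 for abx_and_acetate and 0.23 for acetate against control, with 8 of 9 folds positive in each; the 2 comparisons share the 6 WT_control libraries. Over all genes 50.1% and 50.3% of the folds were positive. Members were correlated across libraries, so the 9 folds are not independent, and the count of positive folds was not tested. An unadjusted p under 0.05 in limma was reached by 3 members for abx_and_acetate, among them Htr1b with its negative fold, and by 2 for acetate. Without the libraries lowest in Htr2a, the Htr2c fold turned negative for abx_and_acetate and nearly vanished for acetate, as given above. Those libraries were the highest of their groups for Htr2c, so its folds had to fall, and the change is no test of the treatment.

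In KO no treatment called a member. Antibiotics against control gave 0 (0.0134% of all genes) and, without adjustment, 0 (3.3%), with Htr1a at 0.19 ± 0.16 (-0.13 to 0.52; adjusted p = 0.999 by limma), a fold that was 0.39 without KO_control 1 and 0.09 without KO_control 4. Acetate gave 0 (0%) and 1 (13%), antibiotics with acetate 0 (0%) and 0 (7.42%), and that combination against antibiotics 0 (0%) and 0 (2%). The median log2 fold of the members ran from -0.08 to 0.11 over these 4 comparisons. In KO, 5 of 9 members had a positive fold under acetate, against 8 of 9 in WT, and this difference in count was not tested.

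Interactions and sex gave no call either. The genotype by antibiotics interaction gave 0 members (0% of all genes) and 0 unadjusted (2.47%). The genotype by acetate interaction gave 0 (0%) and 0 (3.65%), with Htr5a at -0.18 ± 0.13 (-0.44 to 0.08; adjusted p = 0.997 by limma). The combined treatment gave 0 (0%) and 2 (4.53%). The F test over 8 groups called 0 members (0.0403% of all genes) and 1 without adjustment (9.05%). Males against females gave 0 (0.0672%) and 0 (3.07%), with Htr5a at -0.09 ± 0.05 (-0.19 to 0.01; adjusted p = 0.999 by limma).

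**Figure D4:**
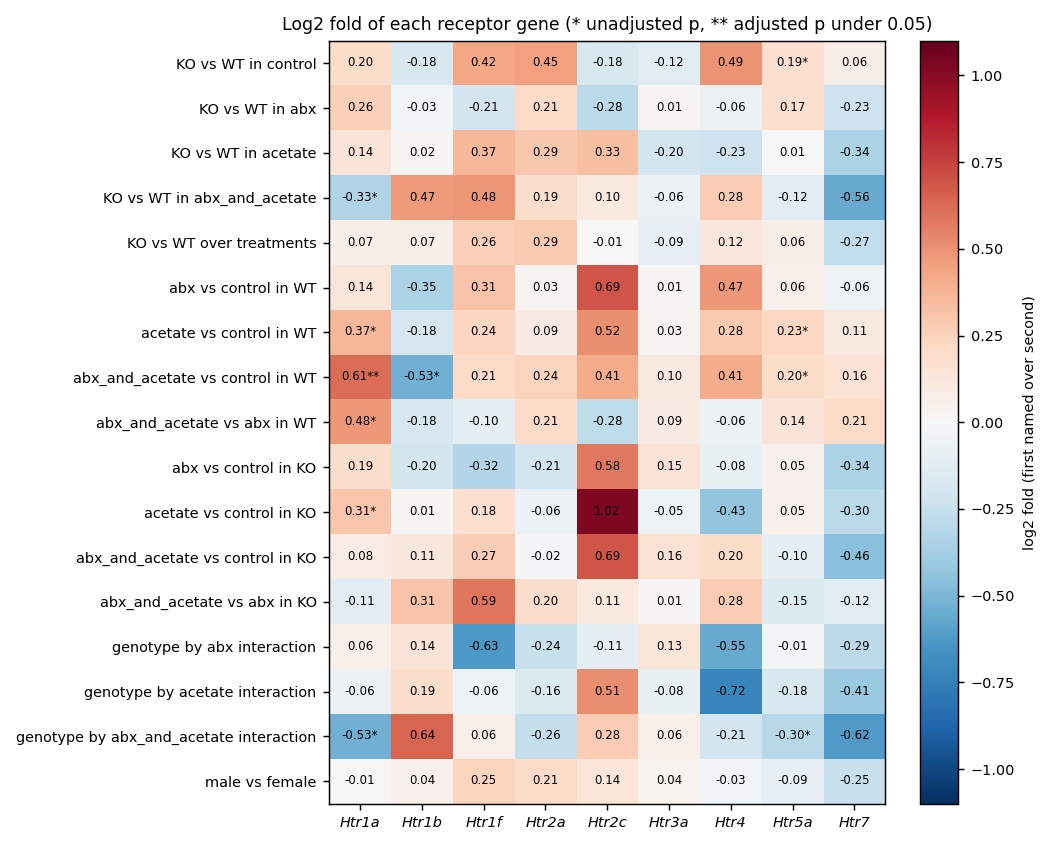
Log2 fold of each receptor gene (columns) in 17 comparisons (rows, first-named group over second), coloured from blue (lower) to red (higher); an asterisk marks an unadjusted and 2 asterisks an adjusted p under 0.05. Only Htr1a for antibiotics with acetate against control in WT (0.61) has 2 asterisks; Htr2c for acetate against control in KO (1.02) is the largest fold without a mark.

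Members also varied together across libraries, and this pattern leaned on a few of them. Over 35 libraries, 10 of 36 pairs passed a permutation test after adjustment, 5 positive and 5 negative. Htr2a correlated with Htr1b (r = 0.68, rho = 0.54, adjusted p = 0.00054) and with Htr1f (r = 0.57, rho = 0.55, adjusted p = 0.00288). Htr7 went the other way, with r = -0.60 against Htr2a (rho = -0.55, adjusted p = 0.00162), r = -0.62 against Htr1b (rho = -0.56, adjusted p = 0.00132) and r = -0.65 against Htr1f (rho = -0.66, adjusted p = 0.00054). Without the 2 libraries farthest from the median of the gene named first, r was 0.50 for Htr1b with Htr2a, 0.45 for Htr1f with Htr2a, -0.47 for Htr2a with Htr7, -0.54 for Htr1b with Htr7 and -0.58 for Htr1f with Htr7. Htr1a correlated with Htr5a at r = 0.45 (rho = 0.48, adjusted p = 0.0251), and r was 0.22 after group and sex were taken out.

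WT_abx_and_acetate 4, WT_acetate 3 and the library labelled WT_abx 4 formed a corner of their own, with Htr2a at 3.07 to 3.20, Htr1b at 2.61 to 2.93, Htr7 at 4.08 to 4.73 and Htr2c at 5.57 to 6.07 log2 CPM. Within the other 32 libraries 4 of 36 pairs passed, 2 of which were among the 10. By the same permutation test r was 0.38 for Htr1b with Htr2a (adjusted p = 0.111), -0.55 for Htr1f with Htr7 (adjusted p = 0.0243), -0.44 for Htr1b with Htr7 (adjusted p = 0.0689) and -0.33 for Htr2a with Htr7 (adjusted p = 0.172). Htr2c with Htr3a passed in both, at r = -0.51 over 35 and -0.52 over 32 libraries, but r was -0.20 without KO_acetate 1 and WT_acetate 3. The 3 libraries had choroid plexus scores of 1.69, -0.68 and 2.77 and meningeal scores of -0.61, -1.47 and 2.37, so they did not share those markers. WT_abx_and_acetate 4 is also the shallowest library, at 12.8 M reads. The part of depth and of other tissue in these values was not tested.

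Levels of Htr1f, Htr2c, Htr3a, Htr4 and Htr7 correlated with markers of cortical layers. Of 90 relations between 9 members and 10 marker scores, 17 passed a permutation test after adjustment and 7 of these also passed by rank, within groups and sexes, and without the 2 libraries of most extreme score. Htr1f rose with the deep layer score (r = 0.69, rho = 0.70, adjusted p = 0.0012; r = 0.71 without 2 libraries), as did Htr4 (r = 0.49, rho = 0.49, adjusted p = 0.0295; 0.48 without 2). Htr7 was lower where the deep layer score was high (r = -0.57, rho = -0.63, adjusted p = 0.00501; -0.53 without 2). Against upper layer markers, Htr2c had r = -0.72 (rho = -0.71, adjusted p = 0.0009; -0.58 without 2), Htr3a r = 0.68 (rho = 0.53, adjusted p = 0.00157; 0.48 without 2) and Htr4 r = -0.44 (rho = -0.55, adjusted p = 0.0431; -0.57 without 2). Htr3a also rose with markers of interneurons from the caudal ganglionic eminence (r = 0.44, rho = 0.51, adjusted p = 0.0431; 0.50 without 2), which are known to carry this receptor.

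In the 32 libraries these 7 relations had the same sign, with r from -0.83 for Htr2c and the upper layer score to 0.68 for Htr1f and the deep layer score. The upper layer score ran from -0.94 in KO_acetate 1 to 0.48 in WT_control 5 and the deep layer score from -0.74 to 0.73. The share of each layer in a punch was not measured, and its part in these values was not tested. Of the other relations that passed, only those of Htr1a and Htr5a with the immediate early score also passed without their 2 most extreme libraries. Htr2c with striatal markers had r = 0.54 (rho = 0.24, adjusted p = 0.0431) but 0.13 without KO_acetate 1 and KO_abx_and_acetate 4, and Htr2a with choroid plexus markers had r = -0.67 (rho = -0.57, adjusted p = 0.0012) and -0.45 (adjusted p = 0.0603) without WT_abx 4 and WT_abx_and_acetate 4.

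**Figure D5:**
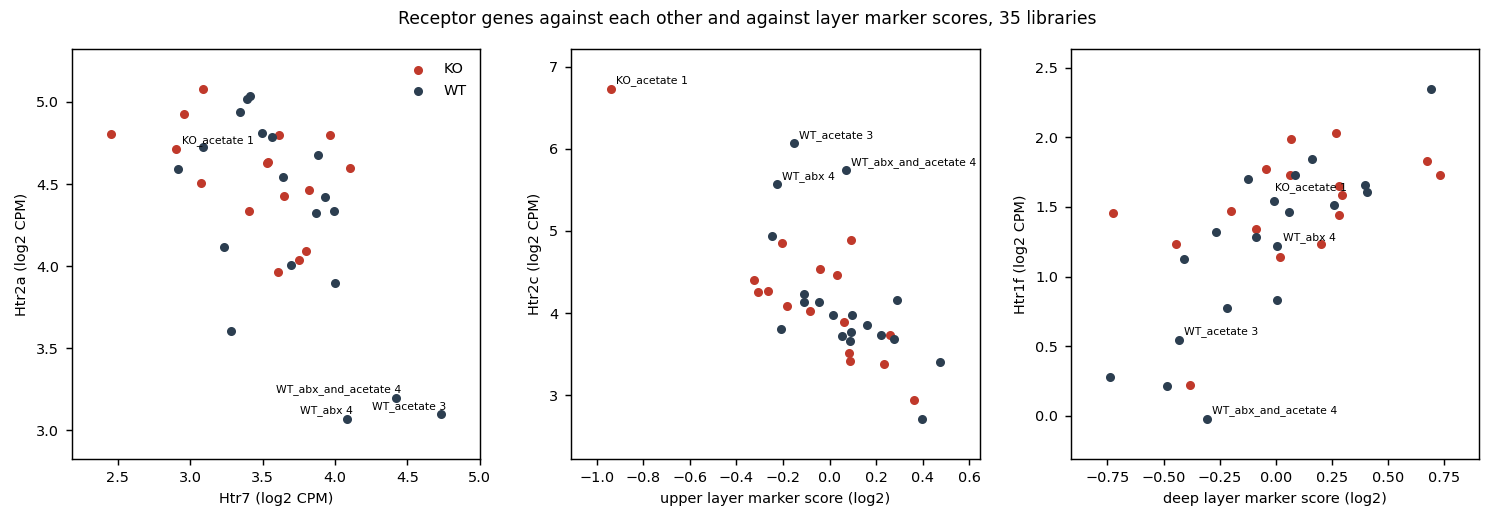
Log2 CPM of Htr2a against Htr7 (left), and of Htr2c against the upper layer score (middle) and Htr1f against the deep layer score (right), with a point for each of 35 libraries, KO in red and WT in dark blue. WT_abx_and_acetate 4, WT_acetate 3 and WT_abx 4 sit in the low Htr2a, high Htr7 corner, and KO_acetate 1 has the lowest upper layer score (-0.94) and the highest Htr2c (6.73).

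The genes most like each member over the 35 libraries, out of genes averaging 0 log2 CPM or more, were named by Pearson's r as a description. Htr7 had the closest, Pip5k1b (r = 0.92), the nuclear receptor gene Rora (0.91) and Tmem215 (0.90). Htr2a followed with Erc2 (0.90), which encodes a presynaptic active zone protein, Klhl2 (0.88) and Orai2 (0.87). Htr1b was nearest Neto1 (0.82), an auxiliary subunit of kainate receptors, Baiap2 (0.81) and Icam5 (0.81), and Htr2c nearest Fhdc1 (0.82), Shisa8 (0.81) and Npsr1 (0.78). Htr1f was nearest Hs3st5 (0.79), the kainate receptor gene Grik3 (0.78) and Palm3 (0.78). For Htr1a they were Dis3l2 (0.75), Mfsd4a (0.73) and Mccc2 (0.72), and for Htr3a Ppp1r26 (0.74), B4galt2 (0.72) and Trpv2 (0.72). Htr5a was nearest Clip3 (0.69), Kansl1 (0.68) and Gpr22 (0.68), and Htr4 nearest the muscarinic receptor gene Chrm2 (0.66), Olfml2b (0.64) and Vwc2l (0.63). Htr7 and Htr2a thus had much closer partners than Htr4, whose values rest on few reads.

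Other genes of serotonin signalling showed 1 call. Of 71 listed genes, 64 were measured, and 1 of their results over 18 comparisons passed. Kcnj3, a subunit of the potassium channels that Gi/o-coupled receptors such as Htr1a open, rose in WT given antibiotics with acetate, the comparison that called Htr1a. It was at 7.43, 7.31, 7.32 and 7.54 log2 CPM in WT_abx_and_acetate and at 6.87 to 7.31 with a median of 7.02 in WT_control, where WT_control 3 (7.31) overlapped the lowest treated library. The log2 fold was 0.36 ± 0.08 (0.19 to 0.54; adjusted p = 0.0353 by limma). With each library left out it was 0.31 to 0.43 and was called in 2 of 10 cases, without WT_control 3 or without WT_abx_and_acetate 2; the adjusted p ran from 0.00914 to 0.117 over the 10. In KO, the same treatment gave Kcnj3 a log2 fold of 0.03 ± 0.09; the interaction was -0.33 ± 0.13 (unadjusted p = 0.0134, adjusted p = 0.999).

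In that comparison 1 of 12 genes of Gi/o signalling was called higher and 0 lower, with 5 positive and 7 negative folds and a median of -0.06, against 0.00 over all genes. None was called among 11 genes of Gq signalling (8 positive, median 0.07), 15 of Gs signalling (9 positive, median 0.04), 12 receptor partners (7 positive, median 0.01) and 12 genes of serotonin supply and breakdown (6 positive, median 0.00). Unadjusted p-values under 0.05 numbered 1 of 12 for Gi/o, 0 for Gq, 3 of 15 for Gs, 1 of 12 for partners and 1 of 12 for supply, where 14.4% of all genes had such a p and 0.726% were called. In the other lists the gene with the smallest p over all comparisons stayed short of the threshold in limma. Maoa, the mitochondrial enzyme that degrades serotonin, was at 0.30 ± 0.09 for antibiotics against control in WT (0.13 to 0.48; adjusted p = 0.261), and Mpdz, a scaffold that binds Htr2c in cells, at -0.23 ± 0.08 in the same comparison (adjusted p = 0.359). The phospholipase Plcb1 was at 0.22 ± 0.08 for antibiotics with acetate against antibiotics in WT (adjusted p = 0.720), and the adenylyl cyclase Adcy3 at -0.23 ± 0.08 for antibiotics with acetate against control in WT (adjusted p = 0.166).

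Of 5 further receptor genes listed, Htr6 and Htr5b were measured. Htr6, Gs-coupled, was at 3.77 CPM per kb, between Htr2a and Htr7, and Htr5b at 0.705 CPM per kb. Neither was called in any comparison. Htr5b was at -0.89 ± 0.40 for antibiotics with acetate against control in WT (-1.70 to -0.07; adjusted p = 0.300 by limma), on 14 to 26 reads in treated and 21 to 67 reads in control libraries.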

How the data were processed

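RNA from mPFC punches was sequenced as stranded paired-end libraries, per the labels' protocols. The deposited matrix holds log2 CPM as voom writes it, made by the authors with limma, per the submitters' processing notes (no version given). Which aligner, counter, strand setting, genome build and gene filter were used was not given in the sources used here. Taking each library's lowest value as 0 reads plus voom's offset of 0.5, 100% of values came out as whole reads within 0.01, which gave the depths (12.8 to 28.0 M reads).

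All 14870 genes were fitted with limma 3.58.1 in R 4.3.3, with 8 groups and sex as terms, a trended prior and 26 residual degrees of freedom. P-values of each of 18 comparisons were adjusted over all genes by Benjamini-Hochberg, with a threshold of 0.05. Scores, 100000-draw permutation tests of correlations (the smallest p they can give is 1e-05) and promoter searches used Python 3.11.15, numpy 2.4.6, pandas 2.3.3 and scipy 1.17.1. The fit was run on simulated counts with the same spread setting for every gene, so that run does not cover members of wide spread such as Htr2c. The members, marker lists and pathway lists were chosen with earlier results of these data known. Folds were named for members with an unadjusted p under 0.05 or, failing that, the smallest p of a comparison, for 3 genes most like each member, and for pathway genes that passed or had a list's smallest p. Numbers of libraries are record-order names, so no replicates were paired. Alternatives were the sex term, the groups fitted, a filter on low genes, the trend, voom weights, quantile scaling, RNA integrity, library weights, a pseudocount, doubted libraries and each library left out. Positions are from the GRCm38 annotation, and promoter sequences from RefSeq (GRCm38.p6).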

Additional observations from a re-analysis of the deposited data

Results flagged for a closer look

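Over 63 sets of values (9 receptor genes in the 7 groups of 4 or more libraries), 6 values lay far enough from the rest of their group to pass Dixon's 95% value, where chance gives about 1 in 20. Htr2c accounted for 3 of them, all high, at 5.74 log2 CPM in WT_abx_and_acetate 4, 6.07 in WT_acetate 3 and 5.57 in the library labelled WT_abx 4. Htr7 was high at 4.73 in WT_acetate 3. These 3 libraries are those lowest in Htr2a and Htr1b. Htr3a was high at 3.16 in KO_abx_and_acetate 1, and Htr4 low at -0.73 in KO_abx_and_acetate 2, on 13 reads. KO_acetate 1, with the highest Htr2c of all at 6.73, was not among them.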

How the results depend on the processing

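Of 572 alternative values for 22 named folds, 552 kept their direction and side of the threshold, 20 kept the direction but were no longer past it, and 0 reversed. The named folds include none of Htr2a, Htr2c or Htr4, so this count does not cover them. Outside it, the Htr2c fold for antibiotics with acetate against control in WT changed sign without WT_abx_and_acetate 4, WT_acetate 3 and WT_abx 4. Only the folds of Htr1a and Kcnj3 for antibiotics with acetate against control in WT were past the threshold in the main fit. All 20 losses therefore fell on these, and the other named folds had no call to lose. The number of members called for antibiotics with acetate against control in WT, 1 in the main fit, was 0 with the groups of the comparison alone, 0 without WT_abx_and_acetate 4, WT_acetate 3 and WT_abx 4 (chosen after seeing the data), and 0 to 1 with each library left out. The adjusted p of Htr1a there was 0.0645 with the 2 groups alone and 0.0651 without those 3 libraries, and 0.00255 to 0.0492 under the other settings that left out no single library, among them 0.0336 without the 3 libraries of intermediate Shank3. All genes called in that comparison, 108 in the main fit, numbered 956 with library weights, 45 with the 2 groups alone, and 0 to 203 with each library left out (0 without WT_abx_and_acetate 3). Kcnj3 gave log2 folds of 0.37 with the 2 groups alone, 0.35 with RNA integrity as a covariate and 0.32 without the 3 libraries, each short of the threshold. Library weights called 1 member in the test over 8 groups. Relations with marker scores numbered 11 without the 2 most extreme libraries, against 17, and member pairs 4 without the 3 libraries, against 10. The cause of these changes was not tested. The planned count models were not run on the recovered reads, although voom weights were computed from them. The groups alone give no value over treatments, over 8 groups or for sex. No paired analysis was possible because the labels give no replicate numbers. Htr4 and Htr1f rest on as few as 11 and 12 reads, which limits what could be detected for them.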
